A study of Mus musculus with 16 samples.

Results

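Gonadal fat was compared between 4 libraries from mice with subdiaphragmatic vagotomy, called VX_Veh, and 4 from mice with sham surgery, called Sham_Veh, both infused with vehicle. These 8 of the 16 libraries of the series were chosen by their labels alone. All mice were lean C57BL/6J males, 16 weeks old, on standard chow. Polyadenylated RNA of the depot was sequenced. From 4 weeks after the operation the VX_Veh and Sham_Veh mice received vehicle into the cerebral ventricles by osmotic minipump for 2 weeks, with food kept at equal calories across groups. The remaining libraries, 4 labelled VX_SHU and 4 labelled Sham_SHU, had the same operations but received SHU9119 at 1 nmol per day. They enter here as a second comparison of the operations, and in the estimate of the spread that all 16 libraries share. Nothing in the labels states that the 4 libraries of a group came from 4 animals; the p-values below therefore rest on the scatter among libraries, part of which may be technical.

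The vagus carries fibres between the brainstem and the organs of the abdomen, and cutting it below the diaphragm (sDVX) removes both the sensory and the motor traffic of its trunks. Gonadal fat of the male mouse lies beside the epididymis and the testis and stores triglyceride, which its cells make from circulating fatty acids or, by de novo synthesis, from glucose by way of citrate and cytosolic acetyl-CoA. SHU9119 blocks the brain's melanocortin receptors, through which neurons of the hypothalamus act on feeding and on nerve supply to fat. The comparison under vehicle asks what vagotomy alone did to the depot.

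Library totals were 20425295 to 27919892 counts in VX_Veh and 24091580 to 26253647 in Sham_Veh (exact two-sided permutation p = 0.971, n = 4 and 4). Levels are given as CPM, counts relative to the scaled library total, and differences as log2 fold changes of VX_Veh over Sham_Veh. The fat cell hormone gene Adipoq stood at 1205, 2698, 3071 and 2218 CPM in VX_Veh1 to VX_Veh4, against 2357, 2382, 3957 and 2756 CPM in Sham_Veh1 to Sham_Veh4. VX_Veh1 was lowest and Sham_Veh3 highest, and the groups overlapped. Markers of the epididymis summed to 19.1, 9.28, 30.4 and 12036 CPM in VX_Veh and to 5.61, 110.6, 795.7 and 658.1 CPM in Sham_Veh. Testis and sperm markers summed to 157.1 to 345.4 CPM in VX_Veh, against 116.7 to 350.9 CPM in Sham_Veh1 to Sham_Veh3 and 3326 CPM in Sham_Veh4. Genes of motile cilia summed to 1415, 412.4, 377.1 and 55.9 CPM in VX_Veh and to 554.0, 540.1, 66.7 and 499.2 CPM in Sham_Veh. All members of these 3 lists (28, 18 and 18) had a count in some vehicle library, while the haemoglobin genes Hba-a1, Hba-a2, Hbb-b1, Hbb-bs and Hbb-bt were at 0 in all 8. The 12 blood markers, these 5 among them, still summed to 40.1 to 72.0 CPM in VX_Veh and 53.4 to 61.0 CPM in Sham_Veh. Why the haemoglobin genes had no count was not tested, and it is no measure of blood in the samples. Of the 8 libraries, VX_Veh1 was the highest for 4768 and the lowest for 4287 of 16682 genes, Sham_Veh3 for 3500 and 3188, and Sham_Veh4 for 3237 and 3221. In whole tissue, fewer cells of a type and less RNA per cell cannot be told apart.

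**Figure D1:**
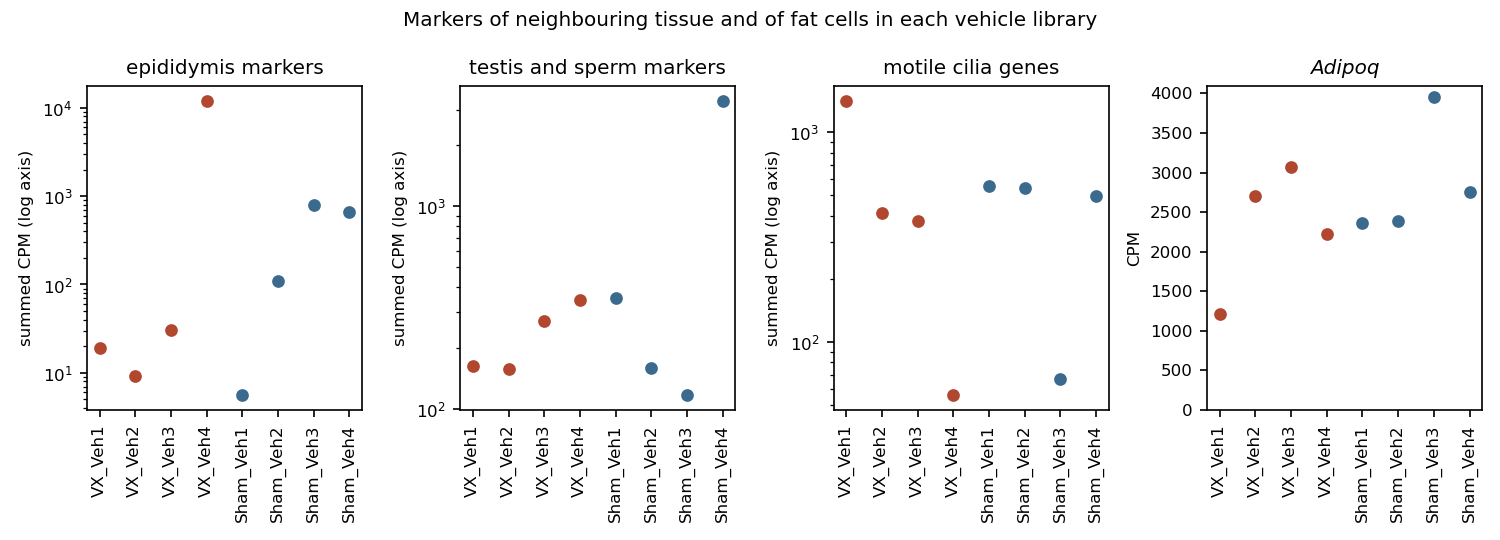
Summed CPM of epididymis, testis and motile cilia genes (log axes) and CPM of Adipoq (linear axis) in each vehicle library, VX_Veh in red and Sham_Veh in blue. The epididymis sum reached 12036 CPM in VX_Veh4, the testis sum 3326 CPM in Sham_Veh4, and Adipoq ran from 1205 CPM in VX_Veh1 to 3957 CPM in Sham_Veh3.

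No single gene passed the test for vagotomy under vehicle. The median log2 fold change was above 0 for lists of fatty acid synthesis (0.48), sterol synthesis (0.29) and glycolysis (0.15), and below 0 for complement (−0.28), extracellular matrix (−0.24) and fat depot expansion (−0.41), with most members of each list past no threshold. By the edgeR quasi-likelihood test with Benjamini-Hochberg adjustment, 0 of 16682 genes (0%) had an adjusted p under 0.05, and the smallest adjusted p was 0.209, for Emp1. At an unadjusted p under 0.05 there were 1335 genes (8%), where 834.1 would be expected with no effect. Of these, 274 (1.64%) were higher and 1061 (6.36%) lower in VX_Veh. The median log2 fold change over all tested genes was 0.01. The excess of lower genes moved with single libraries: Sham_Veh4 was the highest of the 8 libraries for 629 of the 1061, and the number was 377 without VX_Veh1, 388 without Sham_Veh4 and 653 without VX_Veh4. The count of higher genes was 162 without Sham_Veh4, 483 without Sham_Veh2 and 449 without Sham_Veh3. DESeq2 called 8 genes at an adjusted p under 0.05 and limma-voom with sample weights called 4.

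Emp1, which encodes a membrane protein of the PMP22 family found in many epithelia and other tissues, had the smallest p of all genes. It lies on the plus strand of chr6:135362550-135383173 (mm10). Its level was 202.7, 352.4, 236.4 and 252.1 CPM in VX_Veh1 to VX_Veh4, against 527.6, 611.7, 420.9 and 566.4 CPM in Sham_Veh1 to Sham_Veh4. Every VX_Veh library stood below every Sham_Veh library, and the gap between the highest of the first and the lowest of the second was small beside the distance between the means. The log2 fold change was −1.03 ± 0.155 (SE; edgeR adjusted p = 0.209), and it ran from −1.20 to −0.90 when single vehicle libraries were left out. Without VX_Veh2, the highest of its group, the edgeR adjusted p was 0.00873. Under SHU9119 the same operation left Emp1 at 626.7, 576.2, 627.2 and 538.6 CPM in VX_SHU, against 648.4, 545.1, 666.5 and 615.9 CPM in Sham_SHU. There the groups overlapped and the log2 fold change was −0.06 (edgeR adjusted p = 0.878). Of the 6 tested members of a list of growth arrest and PMP22 family genes, Emp1 was the 1 with an unadjusted p under 0.05, and the list median was 0.05.

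The promoter window of Emp1 is printed because it is the gene with the smallest p. The window runs from 250 bases before to 50 after the more upstream of the starts that have a window. It is taken from RefSeq (GRCm38.p6, the mm10 build) at chr6:135362681-135362980 on the plus strand, inside the span given above for the gene. The capitals mark the AP-1 motif TGANTCA, searched on both strands with no overlapping matches.
Emp1: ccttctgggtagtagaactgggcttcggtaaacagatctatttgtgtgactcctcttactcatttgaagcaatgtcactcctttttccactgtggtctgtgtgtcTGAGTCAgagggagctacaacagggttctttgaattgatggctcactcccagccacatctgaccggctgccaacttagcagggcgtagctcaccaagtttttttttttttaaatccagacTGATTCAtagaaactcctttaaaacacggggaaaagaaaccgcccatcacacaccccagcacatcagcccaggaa
A second Emp1 window, of a downstream start, has no match. The motif occurs here at 2 places and in 7.81% of all 32851 RefSeq promoter windows of this length. Of the 12 genes with the smallest p among lower ones, 10 matched, with 12 windows. The motif occurs in 1 of these windows (8.33%), which is the Emp1 window printed here. That share therefore describes Emp1 and is no comparison over the lower genes. AP-1 is shown out of several motifs searched in the same windows. A match is a description of the letters and not evidence of binding.

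The next genes in rank on the lower side were chosen for their p in this comparison, so that their values are a description. Ifi204, an interferon-inducible DNA-binding protein of the p200 family, stood at 20.7, 29.3, 27.8 and 28.8 CPM in VX_Veh and at 42.7, 35.7, 43.5 and 37.4 CPM in Sham_Veh (log2 fold change −0.58 ± 0.103; edgeR adjusted p = 0.575). Its neighbour Ifi205 stood at 11.3, 16.0, 16.4 and 19.8 CPM in VX_Veh and at 25.1, 23.2, 25.0 and 23.8 CPM in Sham_Veh (−0.61 ± 0.134; edgeR adjusted p = 0.608). Both are members of a cluster of similar genes on chromosome 1, whose reads the counting could have split. Neither gene's groups overlapped, and VX_Veh1 was the lowest library for both.

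Itga4, the alpha 4 integrin chain by which leukocytes attach to vessel walls, stood at 11.7, 13.9, 13.5 and 14.95 CPM in VX_Veh and at 19.7, 17.3, 18.4 and 18.1 CPM in Sham_Veh (−0.44 ± 0.0841; edgeR adjusted p = 0.608). C6, a component of the membrane attack complex of complement on chr15:4727067-4804045, stood at 36.1, 54.8, 62.3 and 67.2 CPM in VX_Veh and at 121.4, 95.6, 166.7 and 106.3 CPM in Sham_Veh (−1.15 ± 0.226; edgeR adjusted p = 0.608). Ccl24, the eosinophil-attracting chemokine eotaxin-2, stood at 5.14, 8.48, 7.62 and 11.9 CPM in VX_Veh and at 16.0, 13.0, 14.5 and 18.7 CPM in Sham_Veh (−0.91 ± 0.222; edgeR adjusted p = 0.608). For all 3 the highest VX_Veh library lay under the lowest Sham_Veh library.

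The other 6 of the 12 lower genes likewise showed no overlap, an order that choice by p favours and that 2.16% of all genes had. They were Znrf2, which encodes a ubiquitin ligase (−0.44), the protease inhibitor gene Serpinb6a (−0.28), Pid1, an adaptor that limits insulin signalling in fat cells (−0.35), Prps1, which makes the sugar phosphate donor of nucleotide synthesis (−0.52), the lysozyme gene Lyz1 (−0.72) and the sphingosine-1-phosphate receptor gene S1pr3 (−0.41). Lyz1 is a close copy of the adjacent Lyz2, so that reads could be shared between them. Under SHU9119 the 12 genes had log2 fold changes of −0.14 (C6) to 0.21 (Ifi204). There 0 of 12 had an unadjusted p under 0.05 (edgeR, background 10.7%). The SHU9119 libraries entered the choice of these genes only through the filter, scaling and spread shared by all libraries. C6 stood at 85.9, 86.4, 55.8 and 85.0 CPM in VX_SHU and at 82.8, 66.2, 107.0 and 89.2 CPM in Sham_SHU. The difference between the infusions had edgeR adjusted p from 0.786 (Ifi204) upward for these genes, and 0 of 16682 genes passed that test.

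**Figure D2:**
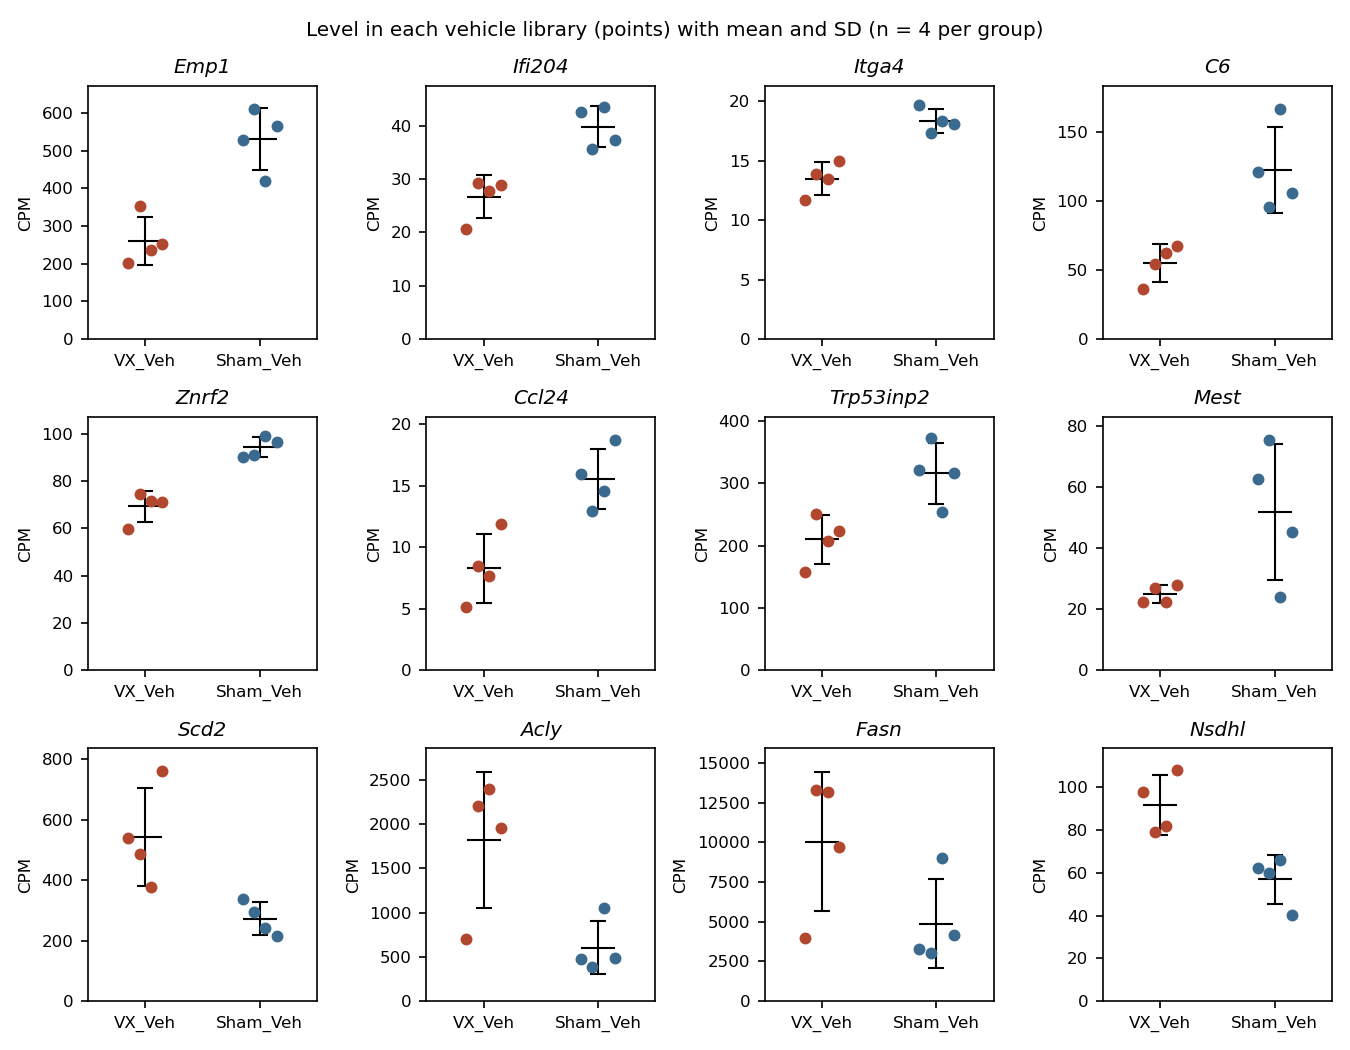
CPM of 12 genes in each vehicle library (points), with the mean and SD of VX_Veh (red, left) and Sham_Veh (blue, right), n = 4 per group, axes from 0. Emp1 averaged 260.9 CPM in VX_Veh and 531.6 CPM in Sham_Veh, and Scd2 541.6 and 272.3 CPM, each without overlap; Acly and Fasn overlapped through VX_Veh1 and Sham_Veh3.

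On the higher side the 12 genes with the smallest p were led by Scd2, a stearoyl-CoA desaturase gene on chr19:44293676-44306864. The others ran between 0.18 and 0.47 on the log2 scale. They include Mvb12b, a subunit of the ESCRT-I sorting complex (0.35), Vps51, of the GARP tethering complex (0.26), Tsen54, of the tRNA splicing endonuclease (0.37), Emg1, a methyltransferase of ribosome assembly (0.26), the orphan nuclear receptor gene Nr2f6 (0.44) and the adhesion gene Nectin1 (0.47). Islr, a leucine-rich repeat protein of stromal cells, stood at 51.2, 55.7, 48.2 and 51.6 CPM in VX_Veh and at 44.1, 43.0, 45.0 and 38.1 CPM in Sham_Veh (0.28 ± 0.0751; edgeR adjusted p = 0.608). It was also higher in VX_SHU, at 65.9, 63.6, 62.1 and 62.6 CPM, against 42.2, 54.1, 47.2 and 48.0 CPM in Sham_SHU (0.41; edgeR adjusted p = 0.30, unadjusted p = 9.13e-05). Neither pair of groups overlapped for Islr. Zfp777, a zinc finger gene, had a log2 fold change of 0.26 under vehicle and 0.28 under SHU9119. Of the 12 higher genes, Nectin1 and Nr2f6 overlapped between groups and the other 10 did not. Choice by p favours such an order, and 0.935% of all genes had every VX_Veh library above every Sham_Veh library.

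**Figure D3:**
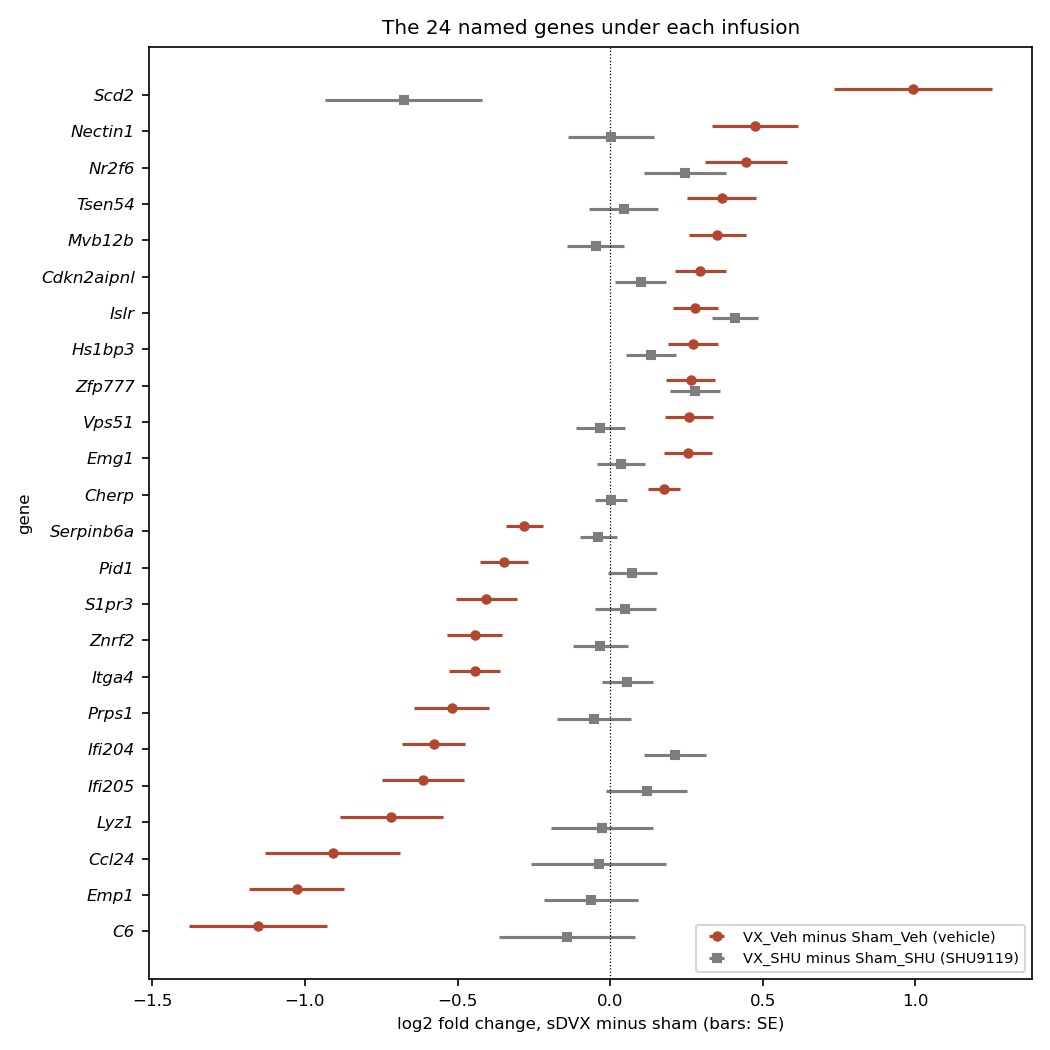
Log2 fold change of sDVX over sham under vehicle (red circles, VX_Veh minus Sham_Veh) and under SHU9119 (grey squares, VX_SHU minus Sham_SHU) for the 24 genes with the smallest p under vehicle, 12 in each direction, with SE bars. The vehicle values chose these genes; under SHU9119 the lower genes lie between −0.14 and 0.21, Scd2 lies at −0.68, and Islr at 0.41.

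De novo fatty acid synthesis had the highest median of the pathway lists. Of 24 tested members, 22 had a log2 fold change above 0 (51.5% of all tested genes did), the median was 0.48, and 3 had an unadjusted p under 0.05 in the higher direction and 0 in the lower (background 1.64% and 6.36%). Acly, ATP citrate lyase, which splits citrate into the cytosolic acetyl-CoA used for fat synthesis, stood at 697.1, 2210.0, 2402 and 1958 CPM in VX_Veh and at 480.4, 390.7, 1055 and 491.0 CPM in Sham_Veh. VX_Veh1 lay below Sham_Veh3 and the other libraries were separate. Its log2 fold change was 1.59 ± 0.516 (edgeR adjusted p = 0.608). Scd2, a desaturase that makes monounsaturated fatty acids, stood at 540.4, 486.6, 376.9 and 762.4 CPM in VX_Veh and at 339.0, 293.1, 241.6 and 215.5 CPM in Sham_Veh, with no overlap (0.99 ± 0.259; edgeR adjusted p = 0.608). The log2 fold change of Scd2 was 0.78 without VX_Veh4, its highest library, and 1.13 without VX_Veh3. It was 0.57 when all libraries above 500 CPM in the epididymis or the testis sum were left out. Scd2 is a close copy of Scd1, and reads could be shared between them. Mid1ip1, which activates acetyl-CoA carboxylase, stood at 194.0, 108.7, 87.9 and 148.9 CPM in VX_Veh and at 102.8, 100.3, 55.0 and 50.5 CPM in Sham_Veh (0.81 ± 0.32). By limma-voom Mid1ip1 had 0.17 and Acly 2.20 on the log2 scale.

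Fasn, the fatty acid synthase, stood at 3944, 13288, 13204 and 9705 CPM in VX_Veh, against 3281, 3018, 9022 and 4176 CPM in Sham_Veh. The same pair of libraries, VX_Veh1 low and Sham_Veh3 high, made the groups overlap, and the log2 fold change of 1.04 ± 0.49 did not pass (edgeR adjusted p = 0.608, unadjusted p = 0.0524). Elovl6, which elongates palmitate, had 1.30, Acss2, which makes acetyl-CoA from acetate, 0.84, Me1, which supplies NADPH, 0.75 and Acaca, acetyl-CoA carboxylase, 0.74 on the log2 scale. Scd1, the most abundant of the desaturases, averaged 26996 ± 11612 CPM in VX_Veh and 23627 ± 8070 CPM in Sham_Veh (SD, n = 4). Its groups overlapped. The log2 fold change of Scd1 was 0.19, and without single libraries it was 0.014 (VX_Veh3), 0.04 (VX_Veh2), 0.11 (Sham_Veh2), 0.46 (Sham_Veh3) and 0.47 (VX_Veh1), with 0.66 by limma-voom. The transcription factor genes of the pathway, Srebf1 (0.18) and Mlxipl (0.31), differed less than its enzymes Acly and Fasn. Idh1 (−0.27) and Elovl1 (−0.05) were the 2 members below 0.

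The number of fatty acid synthesis genes with an unadjusted p under 0.05 was 9 without VX_Veh1, 10 without Sham_Veh3 and 2 without Sham_Veh4, and 8 when all libraries above 500 CPM in the epididymis or the testis sum were left out, which leaves 3 VX_Veh and 2 Sham_Veh libraries. Among all genes tested, the number higher at that p was 345, 449, 162 and 196 in those fits, in that order, against 274 with all libraries. The median ran from 0.37 to 0.67 over the fits without 1 vehicle library. Under SHU9119 the median was −0.28, 0 of 24 members were higher and 1, Scd2, was lower at an unadjusted p under 0.05 (background 5.11% and 5.54%). Scd2 stood there at 541.9, 558.8, 775.4 and 827.4 CPM in VX_SHU and at 1268, 1258, 622.2 and 1172 CPM in Sham_SHU (−0.68; edgeR adjusted p = 0.455). Acly stood at 1533, 1417, 4482 and 2001 CPM in VX_SHU and at 3903, 4851, 1285 and 2536 CPM in Sham_SHU, with wide overlap. In the test of the difference between infusions, 6 of the 24 had an unadjusted p under 0.05 (background 4.76%) and 0 an adjusted one. That test contains the vehicle libraries.

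Sterol synthesis and uptake formed the next list. Of 24 members 19 were above 0, the median was 0.29, and 4 had an unadjusted p under 0.05, all higher (background 1.64% higher). Nsdhl, a decarboxylase that removes methyl groups from lanosterol derivatives, stood at 97.9, 79.0, 81.8 and 108.3 CPM in VX_Veh and at 62.2, 60.03, 65.8 and 40.2 CPM in Sham_Veh, with no overlap (0.68 ± 0.237; edgeR adjusted p = 0.608). Dhcr7, which completes cholesterol, stood at 11.7, 17.8, 17.7 and 19.9 CPM in VX_Veh and at 10.3, 11.8, 12.5 and 12.1 CPM in Sham_Veh (0.52 ± 0.197). VX_Veh1 lay among the Sham_Veh libraries for Dhcr7 and the other VX_Veh libraries above them. Sqle, squalene epoxidase, had 0.54 and Srebf2, the transcription factor gene of the pathway, 0.41 on the log2 scale, or 0.26 for Srebf2 without VX_Veh1. By limma-voom the values were 0.17 for Sqle, 0.05 for Srebf2, 0.48 for Nsdhl and 0.66 for Dhcr7. Hmgcs1, an early enzyme of the pathway, averaged 183.9 CPM in VX_Veh and 233.5 CPM in Sham_Veh. The list median was 0.14 without VX_Veh4, where 2 members had an unadjusted p under 0.05. It was 0.24, with 1 such member, without the libraries that held epididymis or testis transcripts. The number of all genes higher at that p was 389 without VX_Veh4 and 196 without those libraries, against 274 with all. Under SHU9119 the median was −0.35, with 0 members higher and 4 lower at an unadjusted p under 0.05 (background 5.11% and 5.54%).

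Promoter windows of Fasn and Nsdhl are shown because fatty acid and sterol synthesis genes share a description of their promoters, frequent CCAAT letters. The windows are from RefSeq (GRCm38.p6), at chr11:120824498-120824797 on the minus strand for Fasn and at chrX:72918271-72918570 on the plus strand for Nsdhl. Capitals mark CCAAT on either strand, so that the reverse reads ATTGG; in Fasn the last pair of matches overlaps.
Fasn: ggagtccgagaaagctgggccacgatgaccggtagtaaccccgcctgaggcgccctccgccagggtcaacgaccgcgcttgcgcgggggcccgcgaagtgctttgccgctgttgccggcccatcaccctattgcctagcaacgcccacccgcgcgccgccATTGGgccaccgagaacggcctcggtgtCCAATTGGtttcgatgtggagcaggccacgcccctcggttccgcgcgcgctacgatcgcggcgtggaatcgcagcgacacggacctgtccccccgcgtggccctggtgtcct
Nsdhl: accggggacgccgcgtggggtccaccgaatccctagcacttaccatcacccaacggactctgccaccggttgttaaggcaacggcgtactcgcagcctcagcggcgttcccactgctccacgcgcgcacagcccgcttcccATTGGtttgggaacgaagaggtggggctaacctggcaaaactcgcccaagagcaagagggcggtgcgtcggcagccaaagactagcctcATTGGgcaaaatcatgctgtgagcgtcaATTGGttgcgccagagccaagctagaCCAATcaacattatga
CCAAT was found in 57.7% of 26 windows of 20 fatty acid synthesis genes and in 80% of 20 windows of 17 sterol genes, against 37.4% of all windows. The sterol regulatory motif TCACNCCAC was found in 3.85% and 5% of them, against 1.24% of all windows. The GC box GGGCGG, another of the 7 motifs searched, was found in 57.7% and 85% of them, against 35.7% of all windows, and CCAAT was picked for display after these shares were seen. A window without a match says only that these letters are not in these 300 bases.

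Glycolysis follows, the source of carbon for fatty acid synthesis. Of 19 tested members of glucose uptake and glycolysis 14 were above 0, with a median of 0.15. At an unadjusted p under 0.05, 2 were higher and 0 lower (background 1.64% and 6.36%). Pkm, pyruvate kinase of the final step, stood at 560.6, 570.7, 561.3 and 596.0 CPM in VX_Veh and at 386.6, 411.4, 428.9 and 347.6 CPM in Sham_Veh (0.54 ± 0.196; edgeR adjusted p = 0.608). The 4 VX_Veh libraries were close together and all above Sham_Veh. Gpi1, glucose phosphate isomerase, stood at 376.0, 310.7, 332.5 and 301.7 CPM in VX_Veh and at 278.2, 277.2, 287.5 and 264.9 CPM in Sham_Veh (0.25 ± 0.102). Along with Pgk1 (0.28) and Tpi1 (0.11), Pkm and Gpi1 made 4 of 19 members with every VX_Veh library above every Sham_Veh library, where 0.935% of all genes had this order and 3.09% of all genes were without overlap in either direction. The insulin-responsive transporter Slc2a4 averaged 190.2 CPM in VX_Veh and 192.5 CPM in Sham_Veh. Without Sham_Veh3 the list median was 0.25. Under SHU9119 the median was −0.26, and Pkm stood at 437.2, 461.6, 714.8 and 578.0 CPM in VX_SHU and at 737.7, 984.9, 470.1 and 610.1 CPM in Sham_SHU, with overlap. Of the 19 members, 8 had an unadjusted p under 0.05 for the difference between infusions (background 4.76%), a test that contains the vehicle libraries.

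Lipid droplet and lipolysis genes were split. Of 18 members, 3 were higher and 2 lower at an unadjusted p under 0.05 (background 1.64% and 6.36%), and the median was −0.24. The higher ones were the droplet coat genes Plin5 (0.56 ± 0.218) and Plin3 (0.18 ± 0.071) and Cidea (0.96 ± 0.376), a droplet protein also known from brown fat. The lower ones were inhibitors of adipose triglyceride lipase. Hilpda stood at 4.74, 6.71, 5.82 and 6.84 CPM in VX_Veh and at 7.02, 7.72, 8.26 and 10.4 CPM in Sham_Veh (−0.47 ± 0.15), and G0s2 at 67.3, 126.2, 121.3 and 115.2 CPM in VX_Veh and at 155.0, 175.4, 141.8 and 129.6 CPM in Sham_Veh (−0.48 ± 0.194). Neither pair of groups overlapped, and neither gene passed (edgeR adjusted p = 0.608 each). The number of lower members at an unadjusted p under 0.05 was 6 without VX_Veh3 and 1 without VX_Veh1, Sham_Veh1 or Sham_Veh2, and the number of higher ones was 1 without Sham_Veh3 or Sham_Veh4. All tested genes held 905 lower ones without VX_Veh3, 377 without VX_Veh1, 1241 without Sham_Veh1 and 1309 without Sham_Veh2, against 1061. They held 449 higher ones without Sham_Veh3 and 162 without Sham_Veh4, against 274. The list median was −0.01 without VX_Veh1 and −0.07 without Sham_Veh3, and it turned to 0.02 without the libraries with epididymis or testis transcripts and to 0.15 by limma-voom.

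Thermogenic genes had a median of 0.43 over 16 tested members, with Cidea the 1 member at an unadjusted p under 0.05 (background 8%). Cidea stood at 7.31, 8.27, 19.6 and 6.54 CPM in VX_Veh and at 4.43, 4.44, 8.55 and 4.02 CPM in Sham_Veh. VX_Veh3 and Sham_Veh3 were the highest library of their groups, and the groups overlapped. Ucp1, the uncoupling protein of brown fat, was too low to test and stood at 0.174, 0.0347, 17.8 and 0.0384 CPM in VX_Veh and at 0.0763, 0.0364, 0.0413 and 0.0718 CPM in Sham_Veh. VX_Veh3 alone was high. Without VX_Veh3 the list median was 0.26, and no member had an unadjusted p under 0.05, where 403 of all 16956 genes tested were higher. The log2 fold change of Cidea was 0.46 without it. Ppargc1a, a coactivator of mitochondrial genes, stood at 42.3, 18.9, 20.1 and 10.3 CPM in VX_Veh and at 20.9, 18.1, 10.3 and 12.7 CPM in Sham_Veh. VX_Veh1 was the high library, and the log2 fold change of 0.56 ± 0.344 was 0.11 without it and 0.056 by limma-voom.

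Among fat cell identity genes, 2 of 23 members were above 0 and the median was −0.21. At an unadjusted p under 0.05, 0 were higher and 2 lower, near the background of 1.64% and 6.36%. VX_Veh1 was the lowest library for 20 of the 23 members and Sham_Veh3 the highest for 16. The median was −0.02 without VX_Veh1, −0.33 without VX_Veh2 and −0.05 without Sham_Veh3. It lay above 0 without the libraries with epididymis or testis transcripts (0.007) and by limma-voom (0.14). Nnat, an imprinted membrane protein gene, averaged 288.4 ± 51.6 CPM in VX_Veh and 559.4 ± 275.8 CPM in Sham_Veh (−0.96 ± 0.343), and Rarres2, the adipokine chemerin, averaged 61.1 ± 5.52 and 74.7 ± 2.42 CPM (−0.29 ± 0.111; SD, n = 4 each). Both had an unadjusted p under 0.05, with an edgeR adjusted p of 0.608. Without Sham_Veh4 the log2 fold change of Nnat was −0.63. Rarres2 was without overlap, and its log2 fold change under SHU9119 was −0.53 (edgeR adjusted p = 0.315). Lep, the hormone leptin, stood at 227.4, 572.5, 243.8 and 538.9 CPM in VX_Veh and at 521.5, 652.8, 224.6 and 528.8 CPM in Sham_Veh (−0.28; edgeR adjusted p = 0.798). Low and high libraries occurred in both groups, and without single libraries the value for Lep ran from −0.52 (Sham_Veh3) to −0.068 (VX_Veh1). Pparg, the master regulator of fat cells, had −0.21 (edgeR adjusted p = 0.767), and for Pparg this range was −0.42 (VX_Veh2) to −0.011 (VX_Veh1).

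The next list holds genes whose level is known to follow the expansion of the depot. It was drawn up with earlier results of these data known, so its direction is no independent evidence. Of 14 members 2 were above 0, the median was −0.41, and 6 had an unadjusted p under 0.05, all lower (background 6.36% lower). Trp53inp2, which acts in autophagy, stood at 158.1, 251.2, 207.0 and 223.0 CPM in VX_Veh and at 321.4, 372.7, 253.9 and 316.0 CPM in Sham_Veh (−0.59 ± 0.157; edgeR adjusted p = 0.608). Its groups were separate by a small margin. Cav1, caveolin of the membrane pits of fat cells, stood at 1820.4, 2634, 2527 and 2419.6 CPM in VX_Veh and at 3078, 3159.8, 3144 and 3171 CPM in Sham_Veh, with no overlap (−0.42 ± 0.15). Mest, an imprinted gene that follows fat mass in mice, stood at 22.2, 27.0, 22.4 and 27.9 CPM in VX_Veh and at 62.6, 75.6, 24 and 45.3 CPM in Sham_Veh (−1.06 ± 0.386). Sham_Veh3 lay among the VX_Veh libraries for Mest and the other Sham_Veh libraries stood above. Lpgat1, an acyltransferase, had −0.57, Slc7a10, an amino acid carrier of fat cells, −0.47 and Cav2 −0.32. The list median was −0.24 without VX_Veh1, with 3 members at an unadjusted p under 0.05, and 4 such members remained in number without Sham_Veh2 or Sham_Veh4. Without the libraries with epididymis or testis transcripts the median was −0.41 with 5 such members. Lower genes over the whole set tested numbered 1061, 377 without VX_Veh1, 1309 without Sham_Veh2, 388 without Sham_Veh4 and 377 without those libraries. Under SHU9119 the median was −0.34, with 12 of 14 members on the same side of 0 as under vehicle (64.3% of all genes). At an unadjusted p under 0.05, 0 were higher and 3 lower there (background 5.11% and 5.54%). Mest stood there at 51.5, 64.9, 145.1 and 60.8 CPM in VX_SHU and at 103.7, 222.1, 114.2 and 103.9 CPM in Sham_SHU.

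Of 32 extracellular matrix genes 4 were above 0, the median was −0.24, and 6 were lower and 0 higher at an unadjusted p under 0.05 (background 6.36% and 1.64%). Fn1, fibronectin, stood at 135.4, 404.3, 364.4 and 376.2 CPM in VX_Veh and at 457.5, 518.1, 620.0 and 567.2 CPM in Sham_Veh (−0.76 ± 0.284; edgeR adjusted p = 0.608). VX_Veh1 was far below the rest and no library overlapped. The fibrillar collagen gene Col5a2 had −0.51, the fibrillin gene Fbn1 −0.52, the basement membrane gene Nid1 −0.41, Sparc, a collagen-binding protein gene, −0.40, and Lox, which crosslinks collagen, −0.32. Without VX_Veh1 the log2 fold changes were −0.48 for Fn1, −0.32 for Col5a2, −0.22 for Nid1 and −0.16 for Lox. Col1a1, the main fibrillar collagen chain, averaged 326.8 CPM in VX_Veh and 325.7 CPM in Sham_Veh. VX_Veh1 was the lowest library for 20 of the 32 genes and Sham_Veh3 the highest for 19. The median was −0.13 without VX_Veh1 and −0.16 without Sham_Veh3. The number lower at an unadjusted p under 0.05 was 2 without VX_Veh1, Sham_Veh2 or Sham_Veh3, 3 without Sham_Veh4, 4 without Sham_Veh1 and 9 without VX_Veh2, and 0 without the libraries with epididymis or testis transcripts. The same count over all genes was 377 without VX_Veh1, 1309 without Sham_Veh2, 1422 without Sham_Veh3 and 388 without Sham_Veh4. It was 1241 without Sham_Veh1, 730 without VX_Veh2 and 377 without the libraries with those transcripts, against 1061 with all. Of 23 integrin and adhesion genes, 0 were higher and 2 lower at an unadjusted p under 0.05, Itga4 and Itgb3, a count near the background of 6.36% lower, with a median of −0.08. Under SHU9119 the matrix median was −0.23, with 4 members higher and 6 lower at an unadjusted p under 0.05 (background 5.11% and 5.54%).

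**Figure D4:**
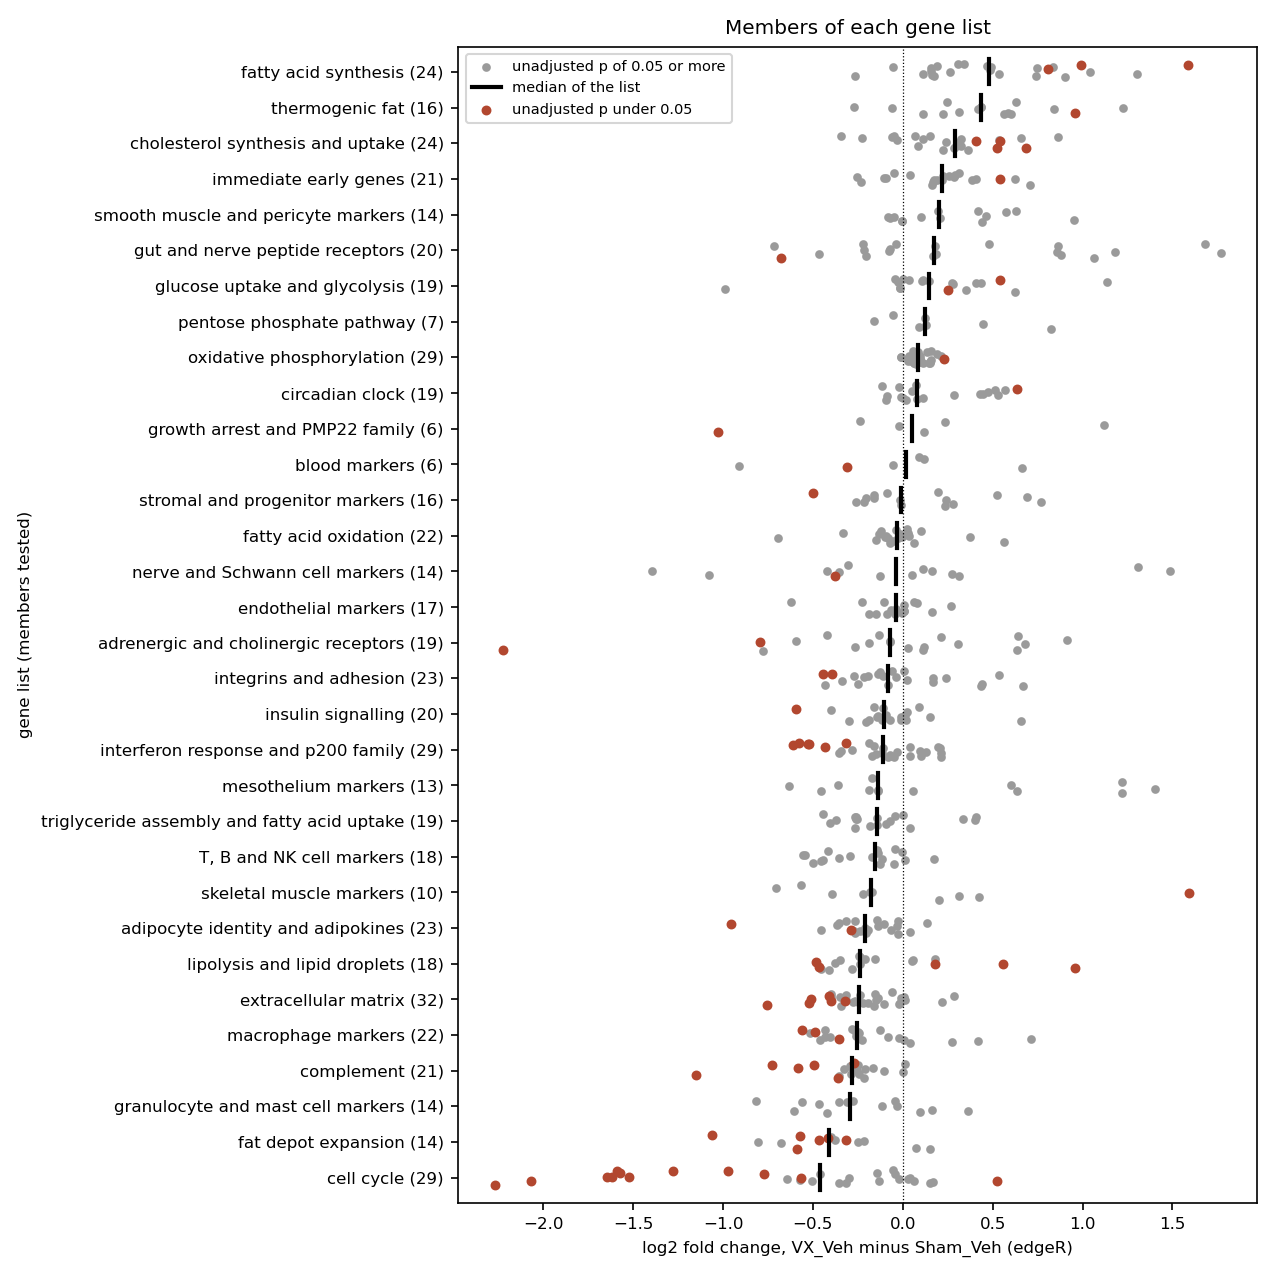
Log2 fold change (VX_Veh minus Sham_Veh) of each tested member of the gene lists, 1 list per line with its number of members, with the median as a black bar and members with an unadjusted p under 0.05 in red. Among the lists plotted, fatty acid synthesis has the highest median (0.48) and cell cycle the lowest (−0.46), and no member of any list passed after adjustment.

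Complement is a cascade of plasma proteases and pore-forming proteins. Of 21 genes 1 had a log2 fold change above 0, and the median was −0.28. At an unadjusted p under 0.05, 6 were lower and 0 higher (background 6.36% and 1.64%). C4b, of the classical and lectin pathways, stood at 261.4, 409.8, 404.8 and 308.3 CPM in VX_Veh and at 580.3, 548.7, 555.7 and 612.5 CPM in Sham_Veh (−0.73 ± 0.263; edgeR adjusted p = 0.608). C2, the protease that joins it, stood at 91.3, 141.6, 140.5 and 126.9 CPM in VX_Veh and at 159.4, 149.99, 276.5 and 164.8 CPM in Sham_Veh (−0.59 ± 0.19). Without Sham_Veh3 the log2 fold change of C2 was −0.34, and by limma-voom −0.24. C1s1, the protease that cuts both, stood at 163.4, 231.0, 223.2 and 203.3 CPM in VX_Veh and at 259.1, 252.8, 288.0 and 256.1 CPM in Sham_Veh (−0.36 ± 0.097).

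With C6, these made 4 of 21 members with every VX_Veh library below every Sham_Veh library, where 2.16% of all genes had this order. Cfp, properdin (−0.49), and Cfb, factor B (−0.27), both of the alternative pathway, were the other members with an unadjusted p under 0.05. C3, the central component, averaged 1492 CPM in VX_Veh and 1821 CPM in Sham_Veh (−0.29), and Cfd, the fat cell protease adipsin, 8131 and 10388 CPM (−0.35). VX_Veh1 was the lowest library for 16 of the 21 genes and Sham_Veh3 the highest for 13. The median was −0.12 without VX_Veh1, with 3 members at an unadjusted p under 0.05, and −0.18 without Sham_Veh3, with 4; the number was also 4 without VX_Veh3. It was −0.22 with 2 such members without the libraries with epididymis or testis transcripts. For all genes the count of lower ones was 377 without VX_Veh1, 1422 without Sham_Veh3, 905 without VX_Veh3 and 377 without those libraries, against 1061. Under SHU9119 the median was 0.21, with 5 members higher and 1 lower at an unadjusted p under 0.05 (background 5.11% and 5.54%). In the test of the difference between infusions, which contains the vehicle libraries, 9 of 21 had an unadjusted p under 0.05 (background 4.76%). None passed after adjustment, at an edgeR adjusted p of 0.957 or more for the members named here.

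The interferon list combines interferon-stimulated genes with the p200 family. Of 29 tested members, 6 were lower and 0 higher at an unadjusted p under 0.05 (background 6.36% and 1.64%), with a median of −0.11. Beside Ifi204 and Ifi205 they were Ifi211 (−0.43), Ifi209 (−0.53), Aim2, the DNA sensor of the inflammasome (−0.32), and Gbp7 (−0.52 ± 0.161). Gbp7 stood at 33.8, 51.5, 53.5 and 44.8 CPM in VX_Veh and at 74.6, 53.2, 70.3 and 66.0 CPM in Sham_Veh, and VX_Veh3 lay just above Sham_Veh2. Isg15 (0.10), Ifit1 (0.21), Ifit3 (0.13) and Irf7 (0.21) stood slightly above 0. The list median turned to 0.01 without VX_Veh1 and to 0.002 by limma-voom. It was −0.17 without VX_Veh2, −0.19 without Sham_Veh2, −0.06 without Sham_Veh1, −0.03 without Sham_Veh3 and −0.04, with 2 lower members, without the libraries with epididymis or testis transcripts. The number lower at an unadjusted p under 0.05 was 3 without VX_Veh1, VX_Veh3, Sham_Veh1 or Sham_Veh3. The all-gene count of lower genes was 377, 905, 1241 and 1422 in these fits, against 1061 with all libraries. It was 377 without the libraries with epididymis or testis transcripts. Under SHU9119 Ifi204 stood at 35.4, 31.6, 31.3 and 34.8 CPM in VX_SHU and at 28.4, 29.8, 29.4 and 27.4 CPM in Sham_SHU. These groups did not overlap, in the direction opposite to that under vehicle (0.21; edgeR adjusted p = 0.47).

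Of 22 macrophage markers 5 were above 0 and the median was −0.26. At an unadjusted p under 0.05, 3 were lower and 0 higher (background 6.36% and 1.64%). Ccr2, the chemokine receptor of recruited monocytes, stood at 24.3, 41.6, 39.2 and 43.1 CPM in VX_Veh and at 60.6, 47.1, 48.9 and 62.1 CPM in Sham_Veh, with no overlap (−0.56 ± 0.157; edgeR adjusted p = 0.608). Mrc1, the mannose receptor of resident macrophages, had −0.35 ± 0.123, and Lyz2, the myeloid lysozyme, −0.49 ± 0.179, or −0.33 without VX_Veh1. The median was −0.10 without VX_Veh1. Under SHU9119 it was 0.26, with 7 members higher and 0 lower at an unadjusted p under 0.05 (background 5.11% and 5.54%). In the test of the difference between infusions, which contains the vehicle libraries, 10 of 22 had an unadjusted p under 0.05 (background 4.76%). Markers of T, B and NK cells (median −0.16 over 18) and of granulocytes and mast cells (−0.30 over 14) held no gene with an unadjusted p under 0.05. Complement, integrin and p200 genes are also expressed by macrophages, and the part of these cells in the values was not tested.

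Cell cycle genes had the lowest median of the pathway lists, −0.46 over 29 members. Of these, 1 was higher and 11 lower at an unadjusted p under 0.05 (background 1.64% and 6.36%). Sham_Veh4 stood apart from the other 7 libraries. Top2a, the topoisomerase of dividing cells, stood at 5.66, 6.46, 9.14 and 5.38 CPM in VX_Veh and at 10.8, 7.32, 9.46 and 37.1 CPM in Sham_Veh, and Cenpe, a kinetochore motor, at 2.65, 2.64, 4.37 and 3.31 CPM in VX_Veh and at 4.66, 4.55, 3.76 and 27.7 CPM in Sham_Veh. Sham_Veh4 was the highest library for 21 of the 29 genes and also held the highest sum of testis and sperm markers, 3326 CPM. Without it the list median was −0.12 and 1 gene was lower at an unadjusted p under 0.05, while 7 were lower without VX_Veh1 or VX_Veh2. Without all libraries that held epididymis or testis transcripts the median was −0.08 and the number was 0. Of all genes, 388 were lower at that p without Sham_Veh4, 377 without VX_Veh1, 730 without VX_Veh2 and 377 without those libraries, against 1061. Germ cell genes followed Sham_Veh4: Ddx4, a helicase of germ cells, stood at 1.74, 0.799, 2.08 and 0.923 CPM in VX_Veh and at 4.77, 1.13, 0.33 and 94.0 CPM in Sham_Veh.

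Of 19 tested adrenergic and cholinergic genes, receptors for the transmitters of autonomic nerves among them, 0 were higher and 2 lower at an unadjusted p under 0.05 (background 1.64% and 6.36%), with a median of −0.07. Adrb1, the beta 1 adrenergic receptor, stood at 1.78, 6.71, 3.28 and 4.04 CPM in VX_Veh and at 5.38, 3.79, 10.8 and 7.51 CPM in Sham_Veh, with overlap (−0.79 ± 0.369; edgeR adjusted p = 0.608). Its log2 fold change was −0.53 without VX_Veh1, −0.49 without Sham_Veh3 and −0.14 by limma-voom. The other, the nicotinic receptor gene Chrna5, stood at 0.131, 0.382, 0 and 0.0769 CPM in VX_Veh and at 0.458, 0.364, 0.33 and 1.69 CPM in Sham_Veh. Sham_Veh4 was the high library, and the log2 fold change of Chrna5 was −2.22 with it and −1.32 without it. Adrb3, the beta 3 receptor that drives lipolysis in mouse fat cells, averaged 904.6 CPM in VX_Veh and 1086 CPM in Sham_Veh (−0.26). Chat, a marker of cholinergic nerve endings, averaged 0.00961 CPM in VX_Veh and 0.018 CPM in Sham_Veh and was not tested. Of 20 tested receptor genes for gut and nerve peptides 11 were above 0, with a median of 0.17, or −0.05 without VX_Veh4. At an unadjusted p under 0.05, 0 were higher and 1 lower, a count near the background. In 2 of the 20 every VX_Veh library lay below every Sham_Veh library, as in 2.16% of all genes. The lower gene, Sctr, the secretin receptor, stood at 5.66, 6.5, 6.63 and 6.23 CPM in VX_Veh and at 11.3, 9.57, 10.4 and 8.73 CPM in Sham_Veh. Its groups did not overlap (−0.68 ± 0.278; edgeR adjusted p = 0.608), and under SHU9119 its log2 fold change was 0.49 (edgeR adjusted p = 0.504). The melanocortin receptor genes Mc3r and Mc4r, the brain targets of SHU9119, averaged 0 and 0.191 CPM in VX_Veh and 0 and 0.0552 CPM in Sham_Veh.

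Genes at an unadjusted p under 0.05 under vehicle mostly kept their side under SHU9119. The SHU9119 libraries enter the vehicle comparison only through the shared filter, scaling and spread. Of the 1061 lower genes 837 (78.9%) were below 0 there, and 175 also had an unadjusted p under 0.05 on that side, against 17 on the other. Of the 274 higher genes 208 (75.9%) were above 0, with 39 and 2 past that p. Over all genes the same side was seen for 10730 of 16682 (64.3%), with 1248 past that p on the same side and 530 on the other. Among genes of at least 5 CPM the shares were 71% of 648 lower and 74.9% of 251 higher genes, against 62.4% of 12227. Past that p were 89 of these lower genes on the same side and 16 on the other, and 37 and 2 of the higher genes. Among all 12227 the numbers were 888 and 421. VX_Veh4 held 12036 and VX_SHU4 12386 CPM of epididymis markers. Sham libraries held them too, at 795.7 CPM in Sham_Veh3, 658.1 in Sham_Veh4, 1979 in Sham_SHU3 and 3978 in Sham_SHU4. Sham_Veh4 held 3326 and Sham_SHU3 1652 CPM of testis and sperm markers. Libraries of both comparisons thus hold transcripts of the same neighbouring tissues, and 17 of 17 tested testis markers were below 0 in both. Sham_Veh4 was the highest library for 629 of the 1061 lower genes. The part of these tissues in the shares was not tested. Depot expansion and matrix had medians below 0 under both, while fatty acid synthesis, sterol synthesis, glycolysis, complement and macrophage markers had medians on opposite sides of 0.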

How the data were processed

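The deposited table holds raw counts of reads per gene for 24454 genes in 16 libraries, made by the authors with bcl2fastq, TopHat and edgeR on mm10, per the submitters' processing notes, which give no versions. How reads were assigned to genes, and whether by strand, is not given in the sources used here, so reads of overlapping genes or close copies may be shared. Gene IDs were matched to symbols for 24374 genes. Here, genes were filtered with filterByExpr, leaving 16682, and tested with edgeR 4.0.16 (TMM scaling, robust quasi-likelihood F test, R 4.3.3) over all 16 libraries, 1 mean per group and no block, with 12 residual degrees of freedom. P-values were Benjamini-Hochberg adjusted over all genes tested. The SE printed is the absolute log2 fold change divided by the square root of the F statistic. The script was tested on simulated data. Alternatives were DESeq2 1.42.0, limma 3.58.1 voom with sample weights, other scaling, no filter, a replicate block, vehicle libraries alone, leaving out each library, and, chosen after the marker levels were seen, leaving out libraries with epididymis or testis transcripts and marker sums as covariates. No pair of replicates was a copy. The genes followed were the 12 with the smallest p in each direction among named genes of at least 5 CPM, up to 4 members per list, and a fixed few. Members and lists were chosen with earlier results of these data known, and further genes were picked with their values in view. Promoter windows came from RefSeq (GRCm38.p6).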

Additional observations from a re-analysis of the deposited data

Results flagged for a closer look

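Within the groups of 4, single libraries stood apart from the other 3 in 21 of 208 sets of values, by a gap to the nearest library that took up most of the group's range (Dixon's test on log2 CPM, so that ratios differ from those of the CPM printed above). Chance gives about 1 in 20 such sets. In VX_Veh it was VX_Veh1 for 8 of these: Cherp (gap 0.839 of the range), Ifi204 (0.854), Acly (0.835), Igf1r (0.878), Fn1 (0.905), Itga3 (0.92), Ntsr2 (0.984) and Ccr2 (0.833), and also the summed endothelial markers (0.886). The summed epididymis markers stood apart in VX_Veh4 (0.842).

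In Sham_Veh it was Sham_Veh3 for Prps1 (0.877), Sqle (0.945), Cidea (0.869), Col5a2 (0.848), C2 (0.846) and Cd14 (0.876), and for the sums of motile cilia genes (0.951) and pancreas markers (0.855). Icam1 (0.885) and Cenpe (0.894) stood apart in Sham_Veh4, and Cox7a1 (0.837) in Sham_Veh2. The part of these libraries in the differences between groups was not tested beyond the fits that leave each one out.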

How the results depend on the processing

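No gene passed after adjustment under vehicle in edgeR with the replicate block, in the vehicle libraries alone, with other scaling or dispersion, with every gene kept, or either alternative for neighbouring tissue. DESeq2 called 8 genes under vehicle (C6, Emp1, Hp, Lyz1, Pid1, Prps1, Serpinb6a and Znrf2), 93 under SHU9119 and 8 for the difference between infusions. Limma-voom with sample weights called 4 (Acly, Emp1, Ifi205 and Itga4), 779 and 13. Leaving out single libraries gave 0 to 1 calls under vehicle, 0 to 3 under SHU9119 and 0 to 1 for the difference. The number of genes higher in VX_Veh at an unadjusted p under 0.05 was 438 with no filter, 978 by limma-voom, 469 with marker sums as covariates, and 162 to 483 without single libraries. The number lower was 548 with the replicate block, 509 in the vehicle libraries alone, 377 without libraries with epididymis or testis transcripts, 702 with marker sums as covariates, and 377 to 1422 without single libraries. By limma-voom the log2 fold change changed sign for Adipoq (0.12), Pparg (0.14), Igf1r (−0.061), Cidec (0.0086) and Adipor2 (0.11), and without libraries with epididymis or testis transcripts for Pparg (0.038) and Adipor2 (0.0022). The causes were not tested. Same-numbered VX_Veh and Sham_Veh libraries had deviations that correlated at −0.172 to 0.676, over 0.1 in 3 of 4 pairs and best with their own number in 2, so the numbers were not taken to pair the samples. The biological coefficient of variation was 50%, which with 4 libraries a group limits precision.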

Other observations

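Oxidative phosphorylation genes were above 0 in 27 of 29 members with a small median of 0.09, where 51.5% of all tested genes were above 0. Ndufb5, a subunit of complex I, averaged 104.3 CPM in VX_Veh and 88.9 CPM in Sham_Veh. The median was 0.18 without VX_Veh1 and 0.04 without VX_Veh3. Immediate early genes, which respond within minutes to stimuli such as handling, were above 0 in 16 of 21 members (median 0.22). Egr1 stood at 82.6, 60.9, 56.6 and 81.4 CPM in VX_Veh and at 38.7, 51.1, 51.2 and 52.2 CPM in Sham_Veh. It was the 1 member of 21 with every VX_Veh library above every Sham_Veh library, as were 0.935% of all genes. Without VX_Veh4 that median was 0.08. Of 19 circadian clock genes 14 were above 0 (median 0.08), and Hlf, a clock output factor, averaged 43.7 CPM in VX_Veh and 28.2 CPM in Sham_Veh. Each of these lists held 1 member higher and 0 lower at an unadjusted p under 0.05 (background 1.64% and 6.36%). None of these genes passed after adjustment in edgeR.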
